A study of Homo sapiens with 6 samples.

Results

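The E2F and RB families hold the transcription factors that start DNA replication and the pocket proteins that restrain them. The 10 genes described here, E2F1, E2F2, E2F3, E2F4, E2F5, E2F7, E2F8, RB1, RBL1 and RBL2, were taken by gene name from a deposited table of 57820 annotated genes. All 10 had a row and all 10 were tested, among 14889 genes with a mean of at least 10 normalised counts over the libraries. RBL1 named a further row of 1.82 normalised counts on the opposite strand, and the row with the larger mean, 824 normalised counts, was used.

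The RNA came from U2OS, an established human osteosarcoma cell line, and the design compared 4 h in 5 µM NMS-873 with 4 h in its solvent, DMSO, at 0.05%. NMS-873 blocks VCP (p97), the ATPase that pulls ubiquitylated proteins out of complexes and membranes for the proteasome. The data are 3 libraries of polyadenylated RNA per treatment, of 1 cell line at 1 dose and 1 time, with 21132311 to 22488952 reads in genes per library. Separate cultures are not mentioned for the libraries in the labels, and p-values here speak of library spread alone, which could be technical. That spread was mostly taken from a trend over all genes (median prior degrees of freedom 250.84 in limma). The 3 libraries per treatment of the gene itself weigh little in it.

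Before the results, 3 facts of the whole series bear on them. Scaling of the deposited values rests on spike-in RNA, and the median gene then had a log2 fold change of -0.10. That median was -0.099 with libraries scaled to equal totals, -0.034 with quantile normalisation and -0.009 with size factors taken from the genes. NMS-873 replicate 1 stood apart from its group, with a chi-square per degree of freedom of 7.36 and 7.81 against the other two, which differed from each other by 1.79 (1.53 to 3.63 among DMSO libraries). Of 8 mesenchymal and osteoblast markers 6 reached 10 normalised counts, with COL1A2 below that level and TWIST1 at 0 reads, and their summed level was 1096 to 1138 FPKM with DMSO and 968 to 1012 FPKM with NMS-873. Summed levels of epithelial markers stayed at or below 1.88 FPKM, of blood markers at or below 0.362 FPKM and of endothelial markers at or below 0.0803 FPKM in every library.

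E2F proteins bind DNA beside genes of DNA replication. E2F1, E2F2 and E2F3 are known as activators, E2F4 and E2F5 act mainly with pocket proteins to repress genes in resting cells, and E2F7 and E2F8 are atypical members that repress without a DP partner or a pocket protein. The pocket proteins pRB (RB1), p107 (RBL1) and p130 (RBL2) bind E2Fs and hold their targets off until cyclin-dependent kinases (CDKs) phosphorylate them. Several E2F genes are themselves E2F targets, so the family is wired with feedback in both directions.

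With NMS-873 the E2F family did not move as one. E2F7 rose 1.72-fold, while E2F2, E2F8 and E2F5 fell 1.94-fold, 1.68-fold and 1.46-fold, and E2F3 and RBL1 fell by smaller amounts. E2F1, E2F4, RB1 and RBL2 did not pass the test. The atypical repressors E2F7 and E2F8, which are close relatives, therefore changed in opposite directions, and of the activators E2F2 and E2F3 fell and E2F1 was not called.

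In numbers, 1 of the 10 genes was called higher and 5 lower in limma at a Benjamini-Hochberg adjusted p under 0.05 over all genes tested. The background was high: 47.9% of the 14889 genes were called, 14.9% higher and 33.0% lower, and nothing about the family is read from 6 calls among 10 genes. The groups of 6 of the 10 genes did not overlap, against 53.6% of all genes tested. The median log2 fold change was -0.12 over the 10 genes and -0.10 over all genes tested. By the authors' deposited table, an adjusted p under 0.05 belongs to 6 of the 10 genes, and all 6 were called here with the same sign. In RNA from a bulk culture, fewer cells of a type and less RNA per cell cannot be told apart.

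**Figure D1:**
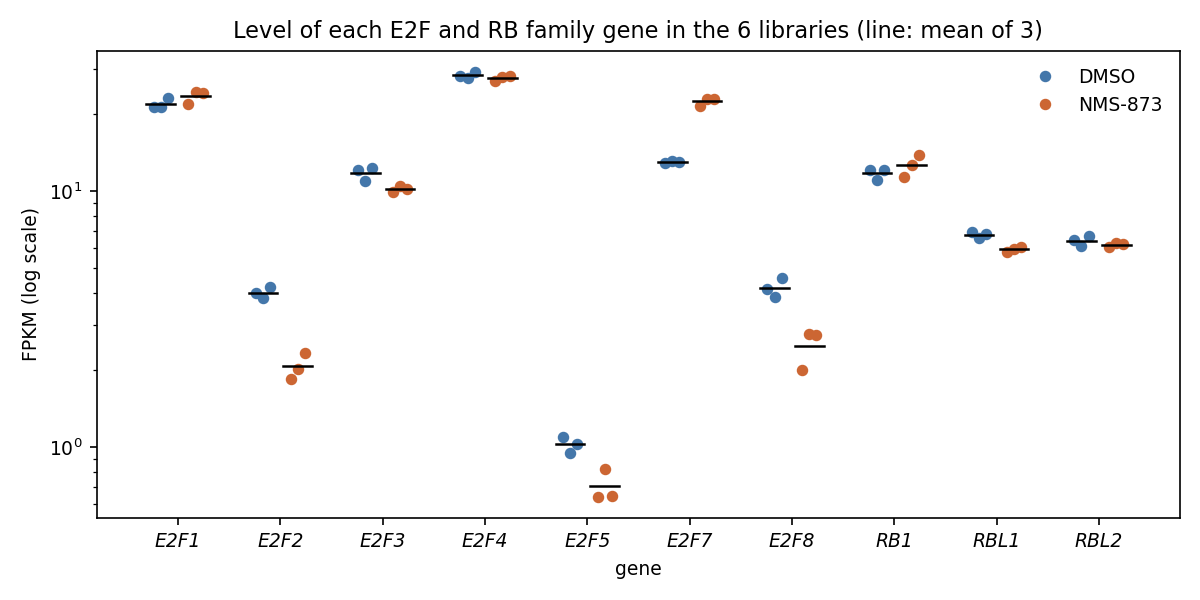
Level of each of the 10 genes in FPKM (reads per length on the spike-in scale, log axis). Each point is a library, DMSO in blue and NMS-873 in orange, with a line at the mean of 3. E2F7 lies higher in all 3 NMS-873 libraries, at 21.4 to 22.8 FPKM against 12.9 to 13.0 FPKM with DMSO, and E2F2, E2F3, E2F5, E2F8 and RBL1 lie lower without overlap.

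Among the activators, E2F2 (ENSG00000007968.6; chromosome 1, 23832922 to 23857712, minus strand, hg19) was at 3.99, 3.84 and 4.20 FPKM in the DMSO libraries and at 1.85, 2.02 and 2.34 FPKM in the NMS-873 libraries. All 3 treated libraries lay below all 3 controls. In normalised counts (reads scaled by the spike-in size factor) its mean was 478 ± 22.0 with DMSO and 247 ± 29.8 after treatment (means ± SD, n = 3 libraries each, as for all levels below), a log2 fold change of -0.96 (SE 0.0805, adjusted p = 1.19e-24 in limma). Only 371 of the 14889 genes tested (2.49%) fell at least as far as E2F2.

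E2F3 (chromosome 6, 20402398 to 20493941, plus strand) encodes a long and a short protein from separate promoters, which gene-level values do not resolve. It was at 12.1, 11.0 and 12.3 FPKM with DMSO and at 9.88, 10.4 and 10.2 FPKM with NMS-873. The groups were apart, but DMSO replicate 2 lay close to the treated libraries. The log2 fold change was -0.21 (SE 0.0590, adjusted p = 0.00157 in limma), of which -0.10 is the shift of the median gene.

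E2F1 (chromosome 20, 32263489 to 32274210, minus strand), the best studied activator, was at 21.3, 21.2 and 23.0 FPKM with DMSO and at 21.8, 24.3 and 24.0 FPKM with NMS-873. These groups overlapped, because NMS-873 replicate 1 fell among the controls. Its log2 fold change was 0.10, with a 95% interval from -0.02 to 0.21 and adjusted p = 0.159 in limma. Without NMS-873 replicate 1 it was 0.15 and passed (adjusted p = 0.0333 in limma), and with size factors taken from the genes instead of the spike-in RNA it was 0.19 and passed (adjusted p = 5.54e-04 in limma). The ratio of E2F1 to E2F2, both per length and within 1 library, needs no scaling between libraries: it was 5.33, 5.53 and 5.47 with DMSO and 11.8, 12.0 and 10.2 with NMS-873.

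E2F7 (ENSG00000165891.11, chromosome 12, 77415027 to 77459360, minus strand) is an atypical repressor that silences E2F targets late in S phase. Of the 10 genes it alone was called higher on the spike-in scale with all libraries included. It was at 12.9, 13.0 and 13.0 FPKM with DMSO and at 21.4, 22.7 and 22.8 FPKM with NMS-873, with a wide gap between the groups. In normalised counts its mean was 1785 ± 9.75 with DMSO and 3073 ± 103 after treatment, a log2 fold change of 0.78 (SE 0.0543, adjusted p = 4.21e-33 in limma). It rested on 1726 to 3199 reads per library, and 392 of the genes tested (2.63%) rose at least as far.

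E2F8 (ENSG00000129173.8; chromosome 11, 19245610 to 19263167, minus strand), the other atypical repressor, fell. It was at 4.14, 3.86 and 4.56 FPKM with DMSO and at 1.99, 2.76 and 2.73 FPKM with NMS-873. NMS-873 replicate 1 was the lowest, and the other two treated libraries were close together and still below every control. The log2 fold change was -0.76 (SE 0.0865, adjusted p = 6.04e-15 in limma), and -0.60 without NMS-873 replicate 1. The ratio of E2F7 to E2F8 was 3.11, 3.38 and 2.84 in the DMSO libraries and 10.8, 8.24 and 8.33 in the NMS-873 libraries, so the lowest treated library stood well above the highest control.

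Of the E2Fs that work mainly with pocket proteins, E2F4 (chromosome 16, 67226072 to 67232821, plus strand) was at 28.0, 27.6 and 29.1 FPKM with DMSO and at 26.9, 27.8 and 28.0 FPKM with NMS-873. The groups overlapped, and the log2 fold change of -0.03 (95% interval -0.14 to 0.07, adjusted p = 0.627 in limma) turned to 0.060 with gene-based size factors, not called either way. E2F5 (chromosome 8, 86089460 to 86129387, plus strand) was at 1.10, 0.955 and 1.04 FPKM with DMSO and at 0.643, 0.824 and 0.647 FPKM with NMS-873, lower in all 3 treated libraries. Its log2 fold change was -0.55 (SE 0.123, adjusted p = 6.20e-05 in limma), on 81 to 138 reads per library, the fewest of the 10 genes. E2F5 overlaps 3077 bases of C8orf59 on the opposite strand, a gene with 1324 normalised counts against 112 for E2F5 and a log2 fold change of -0.36. The sources used here do not say whether counting used strand, so reads of these neighbours cannot be told apart and the value of E2F5 is uncertain.

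Among the pocket proteins, RB1 (chromosome 13, 48877887 to 49056122, plus strand) was at 12.0, 11.0 and 12.0 FPKM with DMSO and at 11.3, 12.6 and 13.8 FPKM with NMS-873. NMS-873 replicates 2 and 3 lay above every control and replicate 1 among them, so the groups overlapped, and the log2 fold change was 0.10 (95% interval -0.01 to 0.21, adjusted p = 0.133 in limma). As for E2F1, it passed without NMS-873 replicate 1 (0.18, adjusted p = 0.00587 in limma) and with gene-based size factors (0.20, adjusted p = 9.54e-04 in limma).

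RBL1 (chromosome 20, 35624752 to 35724398, minus strand), which encodes p107, was at 6.92, 6.53 and 6.80 FPKM with DMSO and at 5.77, 5.96 and 6.02 FPKM with NMS-873. The treated libraries were all lower by a small margin, at a log2 fold change of -0.19 (SE 0.0625, adjusted p = 0.00773 in limma). This call was lost with gene-based size factors (-0.095, adjusted p = 0.0903 in limma) and without DMSO replicate 1 (-0.17, adjusted p = 0.0562 in limma). RBL2 (chromosome 16, 53467889 to 53525561, plus strand), which encodes p130, was at 6.46, 6.08 and 6.68 FPKM with DMSO and at 6.06, 6.24 and 6.20 FPKM with NMS-873. Its groups overlapped, and the log2 fold change was -0.05 (95% interval -0.17 to 0.06, adjusted p = 0.475 in limma), or 0.040 with gene-based size factors. RBL2 shares 610 bases with AKTIP on the opposite strand, which had 481 normalised counts and a log2 fold change of 0.20, so the same doubt about strand applies.

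**Figure D2:**
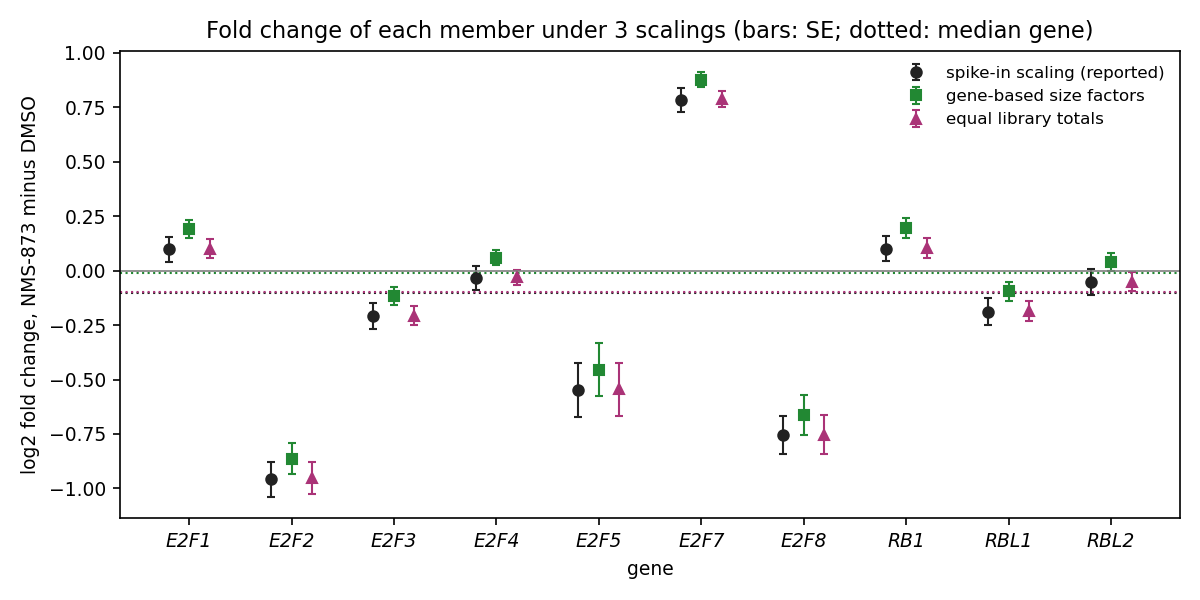
Log2 fold change (NMS-873 minus DMSO) of each gene with its SE under spike-in scaling (black), gene-based size factors (green) and equal library totals (purple); dotted lines mark the median of all genes tested under each. E2F7 stays near 0.78 to 0.88 and E2F2 near -0.96 to -0.86, while E2F4 and RBL2 lie close to 0 and change sign with gene-based size factors.

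Gene-based size factors and equal library totals rescale whole libraries. By construction they moved all 10 genes by about the same amount, which mattered for the small changes alone. Quantile normalisation moved the genes unequally. It took E2F5 from -0.55 to -0.38, E2F8 from -0.76 to -0.66 and E2F2 from -0.96 to -0.87, and left E2F7 at 0.78. With gene-based size factors E2F7 was at 0.88, E2F2 at -0.86, E2F8 at -0.66, E2F5 at -0.45 and E2F3 at -0.12 on the log2 scale, all still called. That setting called 3 of the 10 genes higher (E2F1, E2F7 and RB1) and 4 lower. Over all genes it called 3608 higher and 3273 lower, against 2217 higher and 4910 lower on the spike-in scale.

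Levels per gene length can be set side by side within the family. With DMSO the order was E2F4 at 28.2 ± 0.752 FPKM, E2F1 at 21.8 ± 0.995, E2F7 at 13.0 ± 0.0708, E2F3 at 11.8 ± 0.707, RB1 at 11.7 ± 0.568, RBL1 at 6.75 ± 0.196, RBL2 at 6.41 ± 0.302, E2F8 at 4.19 ± 0.355, E2F2 at 4.01 ± 0.184 and E2F5 at 1.03 ± 0.0709 FPKM. Neighbours whose libraries overlapped in that order were E2F3 and RB1, RBL1 and RBL2, and E2F8 and E2F2. With NMS-873 the order kept E2F4 and E2F1 first, at 27.6 ± 0.622 and 23.4 ± 1.34 FPKM, but E2F7 at 22.3 ± 0.749 FPKM now overlapped E2F1. E2F8 and E2F2, at 2.50 ± 0.434 and 2.07 ± 0.250 FPKM, overlapped again, and RBL2 lay above RBL1.

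On the spike-in scale the sum over the 7 E2F genes was 84.0 ± 2.85 FPKM with DMSO and 88.7 ± 3.63 FPKM with NMS-873, with overlapping groups. This sum depends on the scaling between libraries and was not compared on another scale. Its makeup shifted. E2F7 made up 15.4%, 16.0% and 14.9% of the sum in the DMSO libraries and 25.4%, 25.0% and 25.1% in the NMS-873 libraries. E2F2 went from 4.77% ± 0.0593 to 2.33% ± 0.218 of the sum, and E2F8 from 4.98% ± 0.253 to 2.80% ± 0.383. The share of the activators E2F1, E2F2 and E2F3 together was 44.7% ± 0.543 with DMSO and 40.1% ± 0.378 with NMS-873, and that of E2F7 and E2F8 together was 20.4% ± 0.295 and 28.0% ± 0.196. Both pairs of groups were apart. E2F1 was the one E2F gene whose share overlapped between the groups, at 26.0% ± 0.448 and 26.3% ± 0.452. Shares are parts of a fixed whole, so a larger share of E2F7 by itself lowers the others. The share of E2F4 went from 33.6% ± 0.262 to 31.1% ± 0.608 without overlap, though its FPKM overlapped between the groups. These shares do not depend on the scaling between libraries, and they are a description with no test.

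**Figure D3:**
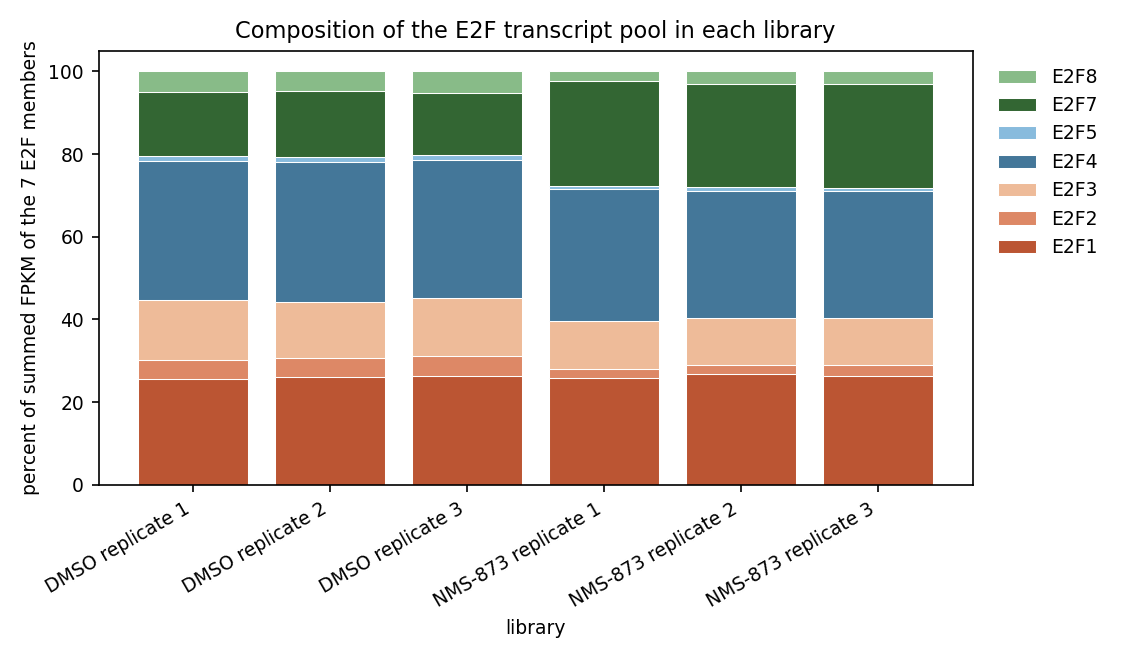
Share of each of 7 E2F genes in their summed FPKM, in percent, as stacked bars for the 6 libraries. The dark green block, E2F7, grows from 14.9% to 16.0% in DMSO libraries to 25.0% to 25.4% in NMS-873 libraries, and the blocks of E2F2 and E2F8 shrink.

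Within the pocket proteins, RB1 made up 47.1% ± 0.341 of the summed FPKM with DMSO and 50.9% ± 2.12 with NMS-873. RBL1 made up 27.2% ± 0.486 and 24.0% ± 0.922, and neither share overlapped between the groups. These shares too are parts of a fixed whole, so less RBL1 by itself raises the share of RB1. The FPKM of RB1 overlapped between the groups, and RB1 was not called. The sum itself, which depends on the scaling, was 24.8 ± 1.04 FPKM with DMSO and 24.7 ± 1.48 FPKM with NMS-873 on the spike-in scale. The ratio of summed E2F to summed pocket protein transcripts was 3.38 ± 0.0835 with DMSO and 3.60 ± 0.106 with NMS-873, a small difference between groups that did not overlap.

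Because E2F genes are known targets of E2F proteins, the bases before their starts were searched for the E2F motif. Sequences are shown for the genes that carry a match, E2F1 (not called) among them, and for E2F7, which was called higher. RefSeq promoter entries (GRCh38.p14) were found for 8 of the 10 genes and none was used for E2F5 and E2F8. The search covered 250 bases before each start, on both strands, for TTTCGCGC, TTTGGCGC, TTTCCCGC and TTTGCCGC (E2F) and for CACGTG (the E-box, bound by MYC with MAX), and matches are in capitals. Each sequence reads 5′ to 3′ on the strand of its gene and ends at the base before the start.
E2F1 (chr20:33686386-33686635, minus strand): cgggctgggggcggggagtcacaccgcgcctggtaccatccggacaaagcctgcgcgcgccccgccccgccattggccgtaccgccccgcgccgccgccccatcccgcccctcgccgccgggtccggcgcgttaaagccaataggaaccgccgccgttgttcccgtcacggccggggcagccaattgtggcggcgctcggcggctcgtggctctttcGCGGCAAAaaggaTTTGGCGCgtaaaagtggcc
E2F2 (chr1:23531234-23531483, minus strand): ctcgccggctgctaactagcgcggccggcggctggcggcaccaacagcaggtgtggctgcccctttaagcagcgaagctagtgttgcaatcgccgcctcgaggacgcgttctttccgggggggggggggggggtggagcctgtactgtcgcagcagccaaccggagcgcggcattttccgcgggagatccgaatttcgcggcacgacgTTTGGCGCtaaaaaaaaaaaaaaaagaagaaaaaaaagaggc
E2F3, upstream start (chr6:20401629-20401878, plus strand): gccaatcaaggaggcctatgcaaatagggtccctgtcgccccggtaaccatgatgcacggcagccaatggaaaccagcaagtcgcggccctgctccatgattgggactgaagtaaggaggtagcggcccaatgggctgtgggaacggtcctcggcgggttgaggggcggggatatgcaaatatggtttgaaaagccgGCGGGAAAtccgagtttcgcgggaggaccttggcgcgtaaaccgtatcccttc
RBL1 (chr20:37095998-37096247, minus strand): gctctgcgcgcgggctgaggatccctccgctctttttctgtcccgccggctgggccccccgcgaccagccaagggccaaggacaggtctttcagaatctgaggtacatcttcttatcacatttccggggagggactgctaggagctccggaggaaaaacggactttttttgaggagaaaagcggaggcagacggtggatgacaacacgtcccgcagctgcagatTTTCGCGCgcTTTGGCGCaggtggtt
E2F7 (chr12:77065570-77065819, minus strand): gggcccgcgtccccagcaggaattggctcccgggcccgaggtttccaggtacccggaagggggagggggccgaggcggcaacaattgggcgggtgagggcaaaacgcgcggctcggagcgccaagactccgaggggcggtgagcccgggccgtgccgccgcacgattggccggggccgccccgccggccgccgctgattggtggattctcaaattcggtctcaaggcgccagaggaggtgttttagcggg

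E2F1 and RBL1 each held 2 E2F matches, and E2F2 and the upstream start of E2F3 held 1 each, all within 53 bases of the start. Of all 35116 promoter windows of this length 2.79% held such a match. The windows of E2F4 and E2F7 and the 2 windows of RBL2 held none. By GENCODE 29, entry 2 of RBL2 lies 1642 bases inside the gene and 1199 bases from the nearest coding transcript start. The entry for RB1 lies 173 kb inside the gene by GENCODE 29 and was set aside. The 3 genes that were called lower and have a promoter entry, E2F2, E2F3 and RBL1, each carried a match, but so did E2F1, which was not called. An E-box was present once, before the downstream start of E2F3, against 6.34% of all windows. Neither the ATF4-type letters TGATGNAA (3.14% of all windows) nor, apart from 1 match at the upstream start of E2F3, the cell cycle element TTTGAA (13.3%) occurred in these windows. TTTGAA does not overlap the E2F match there. A match describes letters only, and its absence says nothing of a factor's binding elsewhere.

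Genes with the pattern most like that of E2F7 and E2F2 over the 6 libraries were found by the root mean square difference of centred log2 values, among 12078 other genes with at least 50 normalised counts. Closest to E2F7 were HBP1, a repressor that binds pRB, at a difference of 0.0268, AARS, the alanyl-tRNA synthetase, at 0.0323 and CCSER2 at 0.0364. Their log2 fold changes were 0.79, 0.80 and 0.75. Closest to E2F2 were TFAP4, a basic helix-loop-helix transcription factor, at 0.0379, KBTBD6, an adaptor of a CUL3 ubiquitin ligase, at 0.0407 and KLF10, a zinc finger repressor, at 0.0458. Their log2 fold changes were -0.998, -0.90 and -0.89. Likeness over 6 libraries in 2 groups mostly restates the size of the treatment difference.

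Among DP partners and genes linked to the MuvB/DREAM complex, TFDP1, MYBL1 and FOXM1 fell, and LIN52 and LIN37 rose. DREAM is the assembly that joins p107 or p130 with E2F4 to repress cell cycle genes. The list of 12 holds DP partners and the MuvB core. It also holds E2F6, MYBL1, MYBL2, FOXM1 and DYRK1A, which are not parts of that assembly. Of the 12, 2 were called higher (14.9% of all genes) and 3 lower (33.0%). The list had a median log2 fold change of 0.06 against -0.10 over all genes tested. That median was 0.023 without DMSO replicate 2 and 0.024 without NMS-873 replicate 3. TFDP1, the main DP partner that E2F1 to E2F6 need to bind DNA, fell from 5601 ± 152 to 4815 ± 251 normalised counts (log2 fold change -0.22, adjusted p = 2.90e-04 in limma). TFDP2 was at 0.08 and was not called, and E2F6, a repressor that does not bind pocket proteins, was at 0.13 (adjusted p = 0.0537 in limma). MYBL1, a MYB factor, fell 1.67-fold, and FOXM1, the activator of mitotic genes that joins MuvB late in the cycle, fell 1.21-fold. MYBL2, which takes the place of the pocket proteins on MuvB in S phase, was at -0.12 and was not called.

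Of the MuvB core, LIN52 rose (log2 fold change 0.23, adjusted p = 0.00197 in limma), LIN9, LIN54 and RBBP4 were at 0.08, 0.11 and 0.04 and were not called, and DYRK1A, the kinase that promotes DREAM assembly, was at -0.11 and was not called. LIN37 passed at 0.67, but its means of 23.1 ± 2.00 (DMSO) and 39.4 ± 14.3 (NMS-873) normalised counts are low and the groups overlapped. The higher calls in this list were 1 without the variance trend or without NMS-873 replicate 3, 4 with equal library totals and 7 with gene-based size factors, E2F6 and TFDP2 among the last. Of all genes, 12.1% were called higher without the variance trend and 12.6% without NMS-873 replicate 3. That share was 16.6% with equal library totals and 24.2% with gene-based size factors.

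Upstream of the pocket proteins, 3 of 15 tested G1 cyclins, CDKs and CDK inhibitors were called higher (20%, against 14.9% of all genes) and 6 lower (40%, against 33.0%), with a median of -0.11. CCND1, cyclin D1, which starts the phosphorylation of pRB with CDK4 and CDK6, fell 2.53-fold, from 6158 ± 278 to 2436 ± 121 normalised counts (log2 fold change -1.34, adjusted p = 1.49e-67 in limma). The other D cyclins went in opposite directions. CCND2 rose from 2989 ± 108 to 3883 ± 42.0 normalised counts (0.38, adjusted p = 2.01e-10 in limma). CCND3 fell from 1249 ± 65.2 to 925 ± 2.77 normalised counts (-0.43, adjusted p = 6.20e-11 in limma). CDKN1A, p21, an inhibitor of CDK2, rose 2.60-fold, from 3040 ± 207 to 7894 ± 369 normalised counts (1.38, adjusted p = 3.29e-69 in limma). CDKN2C, p18, an inhibitor of CDK4 and CDK6, fell 1.98-fold. CDKN2A, which encodes p16, had 0 reads in all 6 libraries, which allows up to 3 reads per library, and was not tested. CDKN2B, with a mean of 3.19 normalised counts, was below the minimum of 10 and was not tested either.

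Of 14 co-repressors that RB family proteins bind, 3 were called higher (21.4%, against 14.9% of all genes) and 4 lower (28.6%, against 33.0%), with a median of -0.10, or -0.053 without DMSO replicate 3 and -0.060 without NMS-873 replicate 1. ARID4A, which was cloned as an RB-binding protein, rose 1.45-fold, SIN3A, a scaffold of histone deacetylases, rose 1.13-fold, and SUV39H1, a histone H3 lysine methyltransferase, fell 1.27-fold. The lower calls were 1 with gene-based size factors, 7 with equal library totals, and 2 without the variance trend or without DMSO replicate 1, NMS-873 replicate 1 or NMS-873 replicate 2. The higher calls were 6 with gene-based size factors and 1 without the variance trend. Of all genes, 22.0% were called lower with gene-based size factors and 35.7% with equal library totals. In the settings that gave 2 lower calls that share was 24.9% to 28.7%. The share of all genes called higher was 24.2% with gene-based size factors and 12.1% without the variance trend.

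Of 38 G1/S genes that E2F is known to drive, 4 were called higher (10.5%, against 14.9% of all genes) and 18 lower (47.4%, against 33.0%), with a median of -0.12 beside the -0.10 of all genes tested. The largest change was a rise: CDC6, which loads the replicative helicase, went from 4049 ± 152 to 8830 ± 208 normalised counts. ORC1, of the origin recognition complex, fell 1.58-fold, and ASF1B, a histone chaperone, fell 1.48-fold. With gene-based size factors 10 of the 38 were called higher and 14 lower, where 24.2% of all genes were called higher and 22.0% lower.

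**Figure D4:**
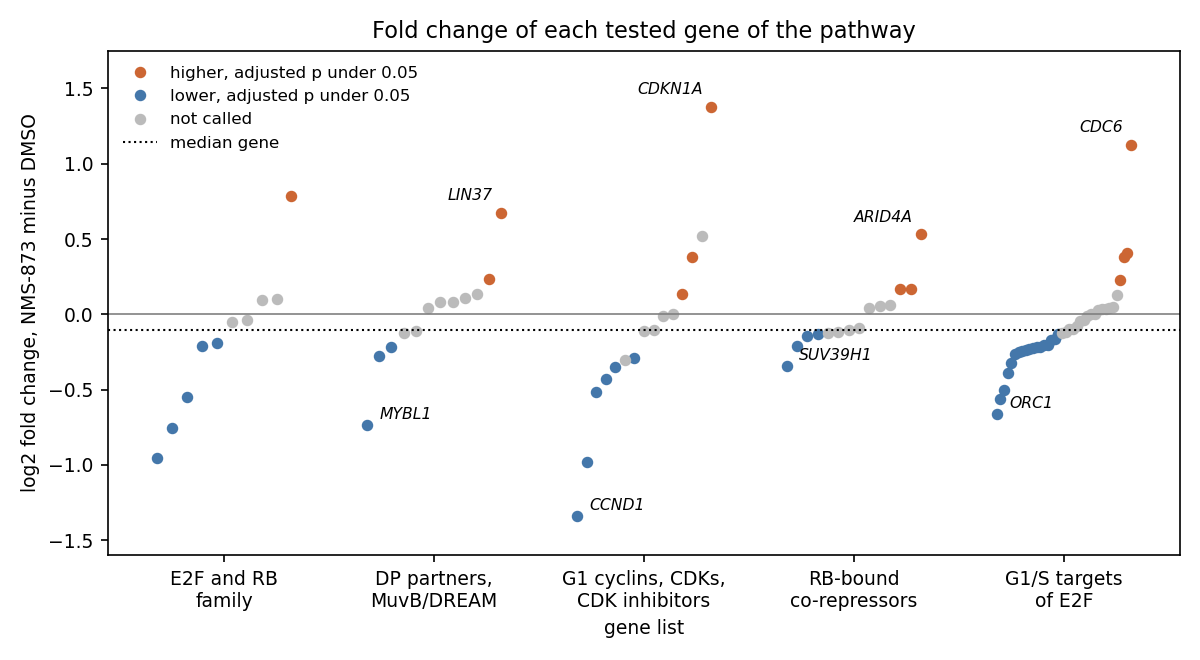
Log2 fold change (NMS-873 minus DMSO) of each tested gene in the E2F and RB family and 4 lists of their pathway, ordered within each list; orange marks higher and blue lower calls, grey genes not called, and the dotted line the median of all genes tested, -0.10. CCND1 at -1.34 and CDKN1A at 1.38 lie farthest out.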

How the data were processed

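The submitters' processing notes name build hg19, featureCounts 1.5.1 and DESeq2 1.16.1. No aligner is named there (not given in the sources used here). The authors deposited FPKM per library, the mean normalised count over libraries (a signal in reads after scaling), and their log2 fold change and adjusted p-value. Normalised counts were rebuilt from FPKM and that mean. Multiplied by each implied size factor, 100% came within 0.001 of whole reads, and the factors equalled the median of ratios over those of the 92 spike-in rows with reads in every library. Intervals and p-values cover no error of the spike-in amounts, and reads carry no molecular identifiers. Genes with a mean of at least 10 were tested with limma 3.58.1 (R 4.3.3) on log2(normalised count + 1), which understates changes of low genes, with a variance trend, two-sided, at an adjusted p under 0.05. The fit was tested on simulated data. Named genes were the 10 family genes, all DP and MuvB/DREAM genes, CDKN1A, CDKN2A, up to 3 calls per list by adjusted p, and 3 nearest genes each for the largest rise and fall. C8orf59 and AKTIP were named because they overlap a family gene, and CDKN2B because its mean is below 10. CCND2 and CCND3 were named as the other D cyclins beside CCND1. The members and lists were chosen with earlier results of these data known. The reported fit did not pair libraries by replicate number, and whether they were paired is not known. Alternatives were scaling, pseudocount, FPKM, count minimum, variance trend, voom, a replicate block and leaving out each library.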

Additional observations from a re-analysis of the deposited data

How the results depend on the processing

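Of the 6 called genes of the family, E2F2, E2F3, E2F5, E2F7 and E2F8 kept their call and direction under all 16 alternatives run, and RBL1 did not. Without the variance trend the adjusted p in limma was 1.74e-04 for E2F7, 8.46e-04 for E2F2, 0.00844 for E2F8 and 0.0118 for E2F5. It was 0.0291 for RBL1 and 0.0422 for E2F3, so the far smaller values above rest on that trend. With gene-based size factors RBL1 was at -0.095 (adjusted p = 0.0903 in limma), E2F1 at 0.19 and RB1 at 0.20 were called, E2F4 turned to 0.060 and RBL2 to 0.040, and calls were 3 higher in the family, 3608 higher and 3273 lower over all genes, 7 higher among DP and MuvB/DREAM genes, 6 higher and 1 lower among co-repressors and 10 higher among G1/S genes. With quantile normalisation E2F1 (0.13) and RB1 (0.12) were called, with 3 higher calls in the family and 6 among DP and MuvB/DREAM genes. Equal library totals gave 4 higher calls among DP and MuvB/DREAM genes and 7 lower among co-repressors, and dropping the variance trend gave 1 higher in DP and MuvB/DREAM genes and 1 higher and 2 lower in co-repressors. Of all genes, 24.2% were called higher and 22.0% lower with gene-based size factors, and 20.7% higher with quantile normalisation. With equal library totals 16.6% were called higher and 35.7% lower, and without the variance trend 12.1% and 24.9%. The cause of these moves was not tested.

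Leaving out 1 library gave 1 to 3 higher and 4 to 5 lower calls in the family, 3 higher without NMS-873 replicate 1 and 4 lower without DMSO replicate 1. Of all genes, 12.6% to 16.1% were then called higher and 26.9% to 33.3% lower. The log2 fold changes then ranged from 0.069 to 0.15 for E2F1, 0.030 to 0.18 for RB1, -0.050 to -0.013 for E2F4, -0.091 to -0.024 for RBL2 and -0.21 to -0.17 for RBL1, and calls ranged from 1 to 2 higher among DP and MuvB/DREAM genes and from 2 to 6 lower among co-repressors. The replicate block gave 1 higher and 5 lower calls in the family and 2352 higher and 5255 lower over all genes, and it changed no call of a family gene. Same-numbered libraries had correlations of deviations of 0.0394, -0.0253 and 0.0425, and not every library correlated best with its own number, so no pairing is assumed. E2F5, with 81 to 138 reads per library, has the widest error of the 10 genes.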
